A study of Mus musculus with 7 samples.

Results

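Interferon-stimulated and antigen presentation genes were followed in the hearts of KLF15-null mice, which lack the zinc-finger transcription factor Krüppel-like factor 15 (Klf15). The list held 42 genes. They were taken by symbol and not by a cut on their values, but with earlier results of these data known. Of the 42 genes, 38 had at least 1 probe set annotated with a single gene symbol, among 12393 such genes on the array. H2-T23, Psme2 and Isg15 lay only on probe sets shared with another symbol, and Xaf1 was not found in the annotation, so these 4 were not analysed here. The 38 genes had 65 probe sets, of which 49 were gene-specific and 16 were _x_at probe sets, whose probes can also bind other transcripts and which are given apart. Of the gene-specific ones 42, from 35 genes, passed the filter on low signal (a mean over all arrays at or above the 40th percentile, log2 5.74) and were tested. The other 7 lay below it, among them all probe sets of Mx1 and Stat2.

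Total RNA from flash-frozen hearts was hybridised to Affymetrix arrays that probe the 3' end of transcripts. The KLF15-null group had 3 arrays and the WT group 4. All mice were labelled as male C57/BL6 animals aged 3 to 4 months, and both groups had been fasted for 18 h, so every value describes the fasted heart. The sources used here give neither the deleted part of Klf15 nor the breeding of the controls. They do not state that each array is a separate animal, so the p-values measure the spread between these arrays.

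Interferons bind receptors at the cell surface that signal through Janus kinases. The type I response is carried by a complex that contains STAT2 and IRF9 and binds the interferon-stimulated response element (ISRE) in promoters, and the response to interferon gamma acts through the gamma-activated site (GAS). Their target genes include antiviral effectors, large and small GTPases that attack intracellular pathogens, and the machinery that presents peptides. Class I molecules, found on nearly all nucleated cells, carry peptides cut by the immunoproteasome and moved into the endoplasmic reticulum by TAP. Class II molecules are characteristic of macrophages, dendritic cells and B cells. In a whole heart, a change in the number of such cells and a change in RNA per cell cannot be told apart.

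Klf15 itself read 6.52, 6.23 and 6.23 on the KLF15-null arrays, against 8.68, 8.98, 8.73 and 9.08 on the WT arrays (log2 signal), a difference of -2.54. Whether its probe set lies in the deleted part is not known. Although all mice were labelled male, of the 3 probe sets of Xist, the RNA of the inactive X chromosome, 2 lay at percentiles 91.4 and 86.8 of the mean signal and 1 at 33.6, and every gene-specific probe set of Eif2s3y, Kdm5d, Uty and Usp9y (Y-linked) lay at or below percentile 27.3, and the label was not borne out in either group. The 2 groups differed widely across the array. Of 13576 probe sets tested with limma, 26.8% passed a Benjamini-Hochberg adjusted p of 0.05 as higher in KLF15-null hearts and 23.8% as lower, and of the 11538 gene-specific ones 23.8% were higher and 25.4% lower. All differences are log2 signals in KLF15-null minus WT hearts. For the brightest 10% the median was 0.30 as deposited, 0.01 with quantile scaling and 0.03 with cyclic loess scaling. All 10 cardiomyocyte markers checked were above the filter (summed linear signal 120500 to 134680 on KLF15-null and 105960 to 121699 on WT arrays). Of their 14 tested gene-specific probe sets 2 were higher (14.3%) and 2 lower (14.3%), with differences from -5.34 to 1.71.

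The share of rises among the listed genes was near that of the array as a whole. Of its 42 tested gene-specific probe sets 11 were higher (26.2%, against the 23.8% of all gene-specific probe sets), 4 were lower (9.52%, against 25.4%, a difference that was not tested) and 27 did not pass the threshold. The median difference was 0.18, against -0.03 over all gene-specific probe sets. The KLF15-null arrays all lay above the WT arrays for 8 probe sets and all below for 4, where 24.5% and 27.2% of all gene-specific probe sets were separated in these directions. Without the filter, 11 of 49 were higher and 4 lower, against 16.5% and 18.1% of all.

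**Figure D1:**
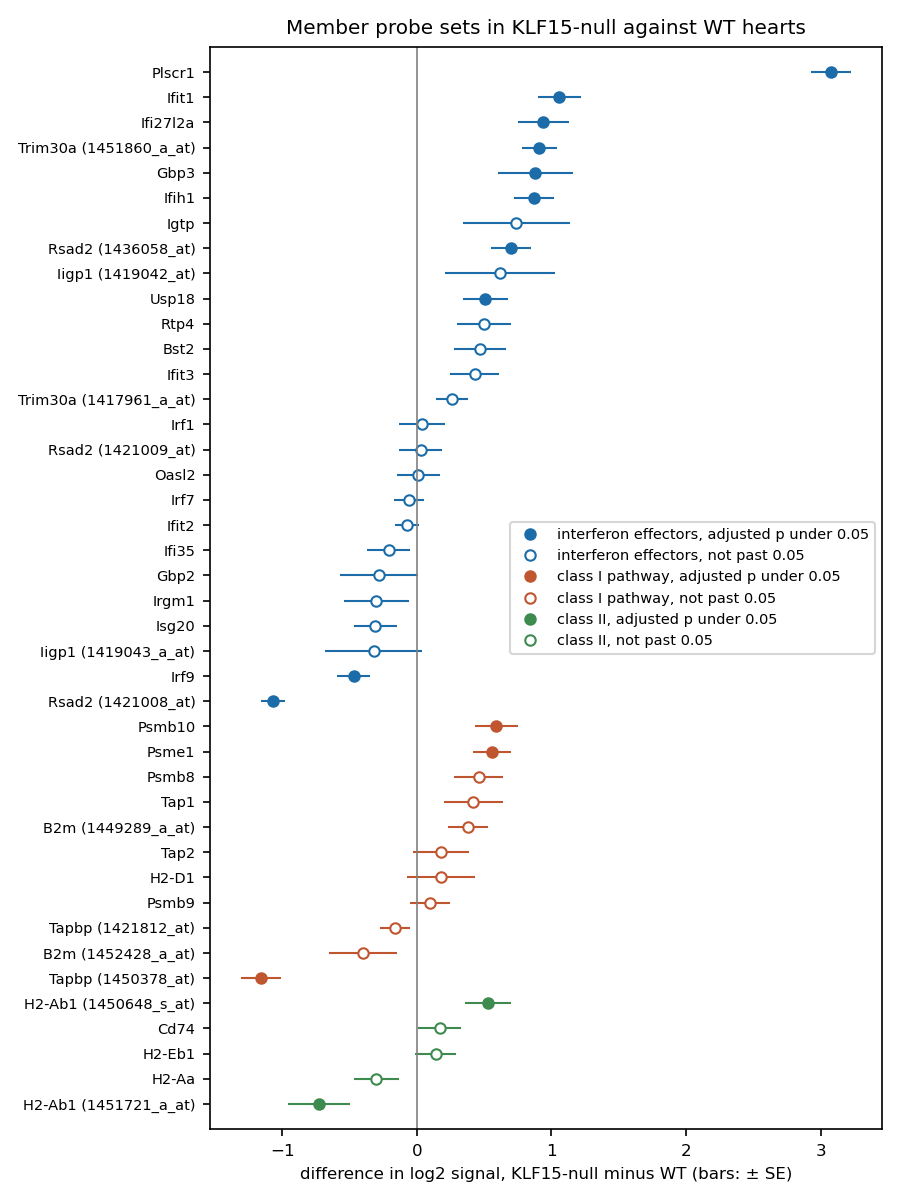
Difference in log2 signal (KLF15-null minus WT, x axis, bars ± SE) for the 42 tested gene-specific probe sets, by class from top to bottom. Filled points passed an adjusted p of 0.05 in limma; Plscr1 stands alone at 3.08, and probe sets of Rsad2 and of H2-Ab1 lie on both sides of 0.

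Among interferon effectors, which made up 26 of the 42 tested probe sets, 8 were higher (30.8%, against 23.8% of all gene-specific probe sets), 2 were lower (7.69%, against 25.4%) and 16 missed the threshold. Their median difference was 0.35, with quantile scaling 0.33 and with cyclic loess scaling 0.32. The number higher ranged from 6 to 12 when single arrays were left out. Outside the GTPases and the transcription factors, 7 of 17 probe sets of effector genes were higher (41.2%) and 1 lower (5.88%). Of 6 GTPase probe sets 1 was higher (16.7%) and 0 lower, and of 3 transcription factor probe sets 0 were higher and 1 lower. With so few probe sets these counts cannot tell whether a role differs from the array as a whole. Neither this nor differences between the roles were tested. The 16 effector probe sets that did not pass lay between -0.32 and 0.74, the lowest adjusted p among them being 0.0562.

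Plscr1, which codes for an interferon-inducible phospholipid scramblase of the plasma membrane, had the largest difference of all members. It read 9.61, 8.93 and 9.35 on the KLF15-null arrays, against 6.16, 6.18, 6.13 and 6.40 on the WT arrays. Every KLF15-null value lay more than 2 log2 units above every WT value. The difference was 3.08 (SE 0.15, limma adjusted p = 1.12e-06), an 8.46-fold higher signal, and its cross-hybridizing _x_at probe set gave 2.48. An exact permutation of the arrays (two-sided, 35 splits) gave p = 0.0286, its lower limit in this design.

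Promoters were read to show how members with unlike responses carry the letters that interferon-activated factors bind. The 250 bases before the annotated start of 6 members are printed here from RefSeq sequence of GRCm38.p6, 5′ to 3′ along the gene: Plscr1 for the largest difference, Ifit1 and Gbp3 for rises, Ifit3, Irgm1 and B2m for genes that did not pass. For Gbp3 the first of its 2 RefSeq promoters is shown. Capitals mark every match, on either strand, to the ISRE core (GAAA, any 2 bases, GAAA) or to the GAS core (TTCNNNGAA). In Gbp3 and Irgm1, 2 ISRE matches overlap.
Plscr1 (chr9:92249944-92250193, plus strand): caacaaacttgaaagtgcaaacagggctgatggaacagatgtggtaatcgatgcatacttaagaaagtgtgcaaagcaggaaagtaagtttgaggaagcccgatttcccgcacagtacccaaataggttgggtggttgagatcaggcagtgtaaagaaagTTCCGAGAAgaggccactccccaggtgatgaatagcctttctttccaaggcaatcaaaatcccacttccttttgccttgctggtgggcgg
Ifit1 (chr19:34640639-34640888, plus strand): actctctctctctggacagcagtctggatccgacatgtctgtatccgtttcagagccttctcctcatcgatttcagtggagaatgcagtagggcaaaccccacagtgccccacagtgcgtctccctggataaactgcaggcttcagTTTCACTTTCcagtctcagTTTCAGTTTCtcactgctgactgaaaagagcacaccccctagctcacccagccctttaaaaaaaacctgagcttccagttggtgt
Ifit3 (chr19:34583279-34583528, plus strand): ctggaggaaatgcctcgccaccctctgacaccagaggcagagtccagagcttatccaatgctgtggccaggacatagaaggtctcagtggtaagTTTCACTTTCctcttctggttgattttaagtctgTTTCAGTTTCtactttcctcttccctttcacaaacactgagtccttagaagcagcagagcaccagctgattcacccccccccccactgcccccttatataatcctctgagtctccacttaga
Gbp3 (chr3:142559794-142560043, plus strand): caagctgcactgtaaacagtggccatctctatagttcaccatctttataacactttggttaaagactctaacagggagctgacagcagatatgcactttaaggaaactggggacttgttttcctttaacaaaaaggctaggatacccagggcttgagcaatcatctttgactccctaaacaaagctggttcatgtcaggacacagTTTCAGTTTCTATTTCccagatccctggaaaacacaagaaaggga
Irgm1 (chr11:48871421-48871670, minus strand): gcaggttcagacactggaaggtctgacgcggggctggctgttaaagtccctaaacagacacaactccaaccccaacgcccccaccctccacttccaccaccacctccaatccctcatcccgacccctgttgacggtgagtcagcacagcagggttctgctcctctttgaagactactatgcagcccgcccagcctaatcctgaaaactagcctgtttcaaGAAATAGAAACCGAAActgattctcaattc
B2m (chr2:122147437-122147686, plus strand): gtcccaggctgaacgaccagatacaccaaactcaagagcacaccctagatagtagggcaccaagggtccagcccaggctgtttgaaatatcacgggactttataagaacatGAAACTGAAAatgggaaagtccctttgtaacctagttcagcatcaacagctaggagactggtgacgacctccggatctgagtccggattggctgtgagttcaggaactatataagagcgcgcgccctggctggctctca
Counted from the annotated start, the capitals in Plscr1 are a GAS match at -90, and no ISRE letters lie in its window. Ifit1 has ISRE matches at -104 and -85, and Ifit3, its relative, at -156 and -122. B2m has one at -139. Over windows of 300 bases, 50 of them past the start, the ISRE letters were found for 15 of the 34 listed genes with a RefSeq promoter, H2-T23 and Isg15 included,, against 3.99% of 27025 genes (3.44% of 32851 promoters), and the GAS letters for 8 of 34, against 9.55% of genes. All 4 GTPase genes with a promoter there, Gbp2, Gbp3, Igtp and Irgm1, held ISRE letters. Among tested members with these letters, 6 of 12 had a probe set that was higher in KLF15-null hearts (Psme1, Gbp3, Ifit1, Ifih1, Rsad2 and Trim30a), and of 16 tested members with a promoter but without them, 2 had (Psmb10 and Plscr1). A gene counted here if any of its probe sets was higher. Ifi27l2a, Usp18 and H2-Ab1 each had a higher probe set but no RefSeq promoter there, so they entered neither count. Tap2, Cd74, Iigp1 and Rtp4, with no higher probe set, were left out for the same reason. The share of all genes with such a probe set was not computed, and 23.8% of all gene-specific probe sets were higher. Lower calls did not enter: Rsad2, with the letters, and Irf9 and Tapbp, without them, each had a lower probe set. These counts describe letters in a window and carry no test.

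Apart from Plscr1, the effector probe sets that passed as higher differed by 0.51 to 1.06. Ifit1, which binds foreign RNA by its unmethylated cap, read 7.13, 7.45 and 7.04 on the KLF15-null arrays, against 6.01, 6.12, 5.90 and 6.56 on the WT arrays. The groups did not overlap, and the difference was 1.06 (SE 0.16, adjusted p = 0.000454). Its relatives did not pass: Ifit3 differed by 0.43 (adjusted p = 0.0724) and Ifit2 by -0.07. WT array 4 read 8.07 for Ifit3, above all 3 KLF15-null arrays (7.97 to 8.05), while the other WT arrays read 7.21 to 7.66. Without WT array 4 Ifit3 passed, at 0.59 (adjusted p = 0.00705).

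Ifi27l2a, a small interferon-inducible membrane protein gene, gave nearly the same value on each KLF15-null array (10.01, 10.02 and 10.01), against 8.70, 8.94, 9.06 and 9.62 on the WT arrays. It rose by 0.94 (SE 0.19, adjusted p = 0.00268), or by 0.74 with quantile scaling. Ifih1, the gene of the cytosolic RNA sensor MDA5, stood at 7.45, 7.89 and 7.74 on the KLF15-null arrays and at 6.48, 6.94, 6.83 and 7.05 on the WT arrays. That is a difference of 0.87 (SE 0.15, adjusted p = 0.00106), with no overlap. Both kept their calls under every filter, scaling, model and left-out array they were run in, but neither reached a minimum difference of 1.

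Trim30a, a mouse TRIM family gene that restrains Toll-like receptor signalling, rose on the dimmer of its 2 probe sets, with 6.71, 7.23 and 6.93 on the KLF15-null arrays against 5.88, 5.99, 6.13 and 6.20 on the WT arrays (difference 0.91, SE 0.13, adjusted p = 0.000311). Its brighter probe set differed by 0.26 and did not pass (adjusted p = 0.107). Usp18, a protease that removes ISG15 from proteins and restrains the type I receptor, read 6.77, 7.0 and 6.36 on the KLF15-null arrays, against 6.38, 6.08, 5.94 and 6.40 on the WT arrays. KLF15-null array 3 lay within the WT range. The difference of 0.51 (adjusted p = 0.0282) did not pass without WT array 2 or 3 or KLF15-null array 1 or 2 (adjusted p from 0.0723 to 0.0923), nor with array weights (0.24, adjusted p = 0.141).

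Rsad2, the gene of the antiviral enzyme viperin, moved in opposite directions on different probe sets. Its brightest one read 9.49, 9.80 and 9.77 on the KLF15-null arrays, against 9.15, 8.67, 8.91 and 9.20 on the WT arrays, a rise of 0.70 (SE 0.15, adjusted p = 0.00353), or 0.53 with quantile scaling. Another read 5.96, 6.07 and 5.79 on the KLF15-null arrays, against 7.0, 6.95, 6.97 and 7.12 on the WT arrays, a fall of -1.07 (SE 0.09, adjusted p = 1.57e-05). The groups did not overlap on either. A further probe set differed by 0.03. Each call held under every filter, scaling, model and left-out array it was run in. The rise did not reach a minimum difference of 1, and settings with 1 value per gene cannot hold both calls. No single direction can be given for this gene. Such splits were common on these arrays: of 2418 genes with 2 or more tested gene-specific probe sets, 19.8% had calls in both directions, and of the 6 members with several, Rsad2 and H2-Ab1 did.

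**Figure D2:**
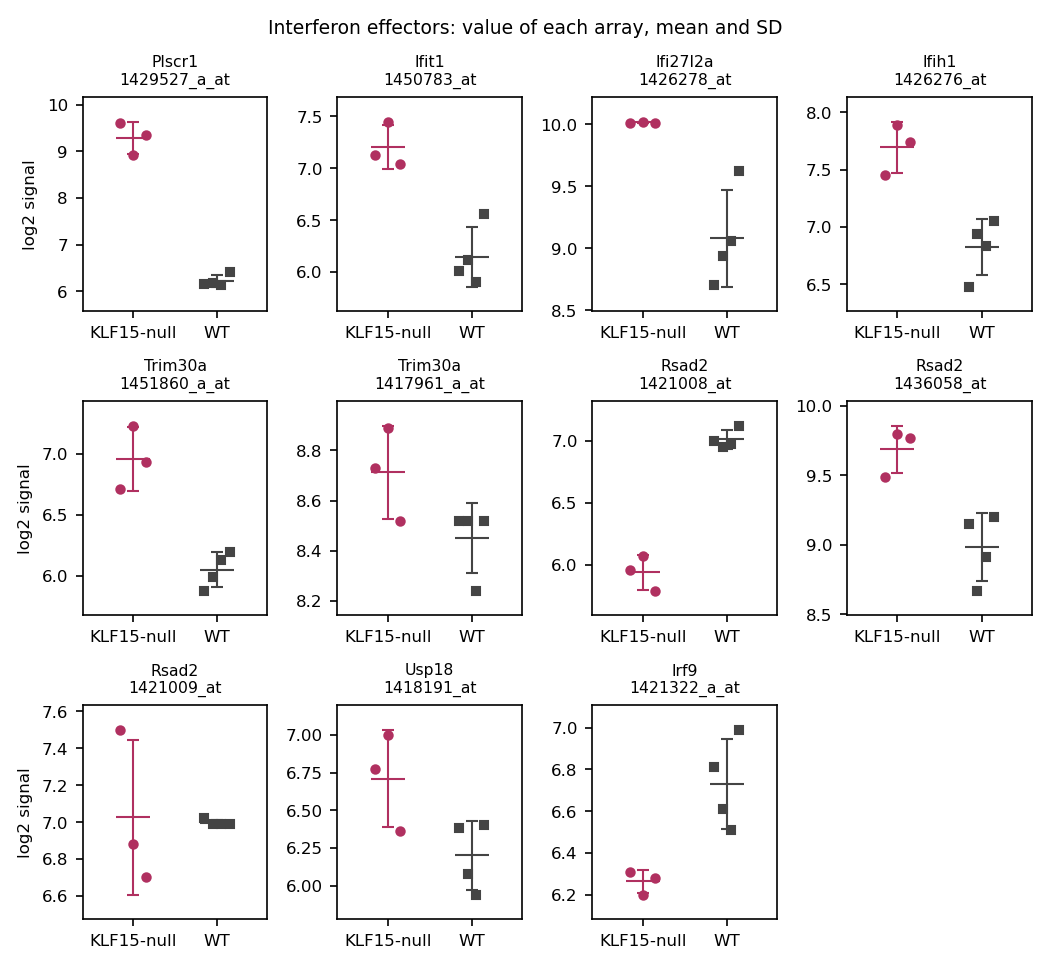
Log2 signal (y axis, scaled for each panel) on each KLF15-null array (circles, left) and WT array (squares, right) for 8 interferon genes and all their tested gene-specific probe sets, with group mean (horizontal line) and SD (bar). The groups are separated for Plscr1, Ifit1, Ifi27l2a, Ifih1 and Irf9, while the 3 probe sets of Rsad2 run in different directions.

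Effectors that stayed short of the threshold included Rtp4, a chaperone of membrane receptors, Bst2, the gene of tetherin, which holds budding virions at the cell surface, and Isg20, an RNA exonuclease. Rtp4 differed by 0.50 (adjusted p = 0.0562) and Bst2 by 0.47 (adjusted p = 0.0597). Without WT array 4 both passed, Rtp4 at 0.69 (adjusted p = 0.00377) and Bst2 at 0.57 (adjusted p = 0.0419). Bst2 also passed under each of the 3 rescalings of the arrays, at 0.53 to 0.57. Rtp4 passed with median centring (0.60, adjusted p = 0.0253). It did not with quantile or cyclic loess scaling, at 0.45 on each (adjusted p = 0.115 and 0.113). Isg20 differed by -0.31, and passed as lower without WT array 2 (-0.44, adjusted p = 0.0243). Ifi35, which codes for an interferon-induced leucine zipper protein, differed by -0.21 and Oasl2, of the oligoadenylate synthetase family, by 0.01.

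Of the 3 tested transcription factors on the list, Irf1, Irf7 and Irf9, none passed as higher and Irf9 passed as lower. Irf9, the DNA-binding subunit of the type I complex, read 6.31, 6.20 and 6.28 on the KLF15-null arrays, against 6.81, 6.61, 6.51 and 6.99 on the WT arrays, with no overlap. It fell by 0.47 on the log2 scale (SE 0.12, adjusted p = 0.00834). Irf7, which amplifies type I interferon production and is itself strongly interferon-inducible, gave 6.68, 6.46 and 6.90 on the KLF15-null arrays and 6.77, 6.65, 6.70 and 6.84 on the WT arrays (difference -0.06, SE 0.11). Irf1, an early target of interferon gamma, gave 8.80, 8.57 and 9.36 on the KLF15-null arrays, against 8.84, 8.81, 8.84 and 8.98 on the WT arrays (difference 0.04, SE 0.17). KLF15-null array 3 was the highest array for Irf1. The 2 probe sets of Stat2 lay below the filter, at means of 5.32 and 5.66 in KLF15-null and 5.50 and 5.74 in WT hearts.

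The interferon-inducible GTPases, which act on the membranes around intracellular pathogens, varied widely within each group. Gbp3, a guanylate-binding protein gene, read 6.87, 7.36 and 8.06 on the KLF15-null arrays, against 6.74, 6.57, 6.01 and 6.87 on the WT arrays. It rose by 0.88 (SE 0.28, adjusted p = 0.0238), but did not pass without KLF15-null array 3 (0.57, adjusted p = 0.0978), without WT array 3 (0.70, adjusted p = 0.0628) or with a replicate block, which leaves out WT array 4 (0.99, adjusted p = 0.0508). Igtp, of the immunity-related GTPases, read 8.92, 8.90 and 10.08 on the KLF15-null arrays and 8.41, 8.47, 7.82 and 9.52 on the WT arrays. That difference of 0.74 had an SE of 0.40 and did not pass (adjusted p = 0.147), although it did without WT array 4 (1.06, adjusted p = 0.0316).

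Irgm1, which steers other immunity-related GTPases to their targets, gave 7.86, 7.71 and 8.41 on the KLF15-null arrays, against 8.28, 8.22, 7.83 and 8.85 on the WT arrays (difference -0.30, SE 0.24). Iigp1, an effector of the same family, differed by 0.62 on one probe set and by -0.32 on its brighter one (-0.60 with quantile scaling), neither past the threshold. On the first it read 8.50, 8.69 and 10.14 on the KLF15-null arrays and 8.49, 8.21, 7.95 and 9.32 on the WT arrays. On the brighter one it read 9.19, 10.20 and 10.49 on the KLF15-null arrays and 10.43, 10.04, 9.64 and 11.03 on the WT arrays. Gbp2 read 7.83, 7.23 and 8.67 on the KLF15-null arrays and 8.13, 8.13, 7.94 and 8.58 on the WT arrays (difference -0.28, SE 0.29). Only without KLF15-null array 3, among the arrays left out in turn, did Gbp2 pass, as lower (-0.67, adjusted p = 0.0397). Its _x_at probe set differed the other way, by 0.49 (adjusted p = 0.122). Mx1, a dynamin-like antiviral GTPase, lay below the filter on every array, between 4.16 and 4.28 in KLF15-null and between 4.02 and 4.34 in WT hearts.

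The same arrays were high across these genes. KLF15-null array 3 was the highest KLF15-null array and WT array 4 the highest WT array for 6 of 6 GTPase probe sets, and WT array 3 was the lowest WT array for all 6. The mean deviations from the group mean were 0.69 on KLF15-null array 3, 0.63 on WT array 4 and -0.53 on WT array 3. Over all 42 tested member probe sets, WT array 4 was the highest WT array for 36 (85.7%), against 17.4% of all gene-specific probe sets, and the lowest for 0. In the class I pathway KLF15-null array 3 was the highest of its group for 10 of 11 probe sets, against 26.3% of all. In class II it was KLF15-null array 1, for 5 of 5, against 42.4% of all. These shares describe the arrays and carry no test, since members share their arrays.

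**Figure D3:**
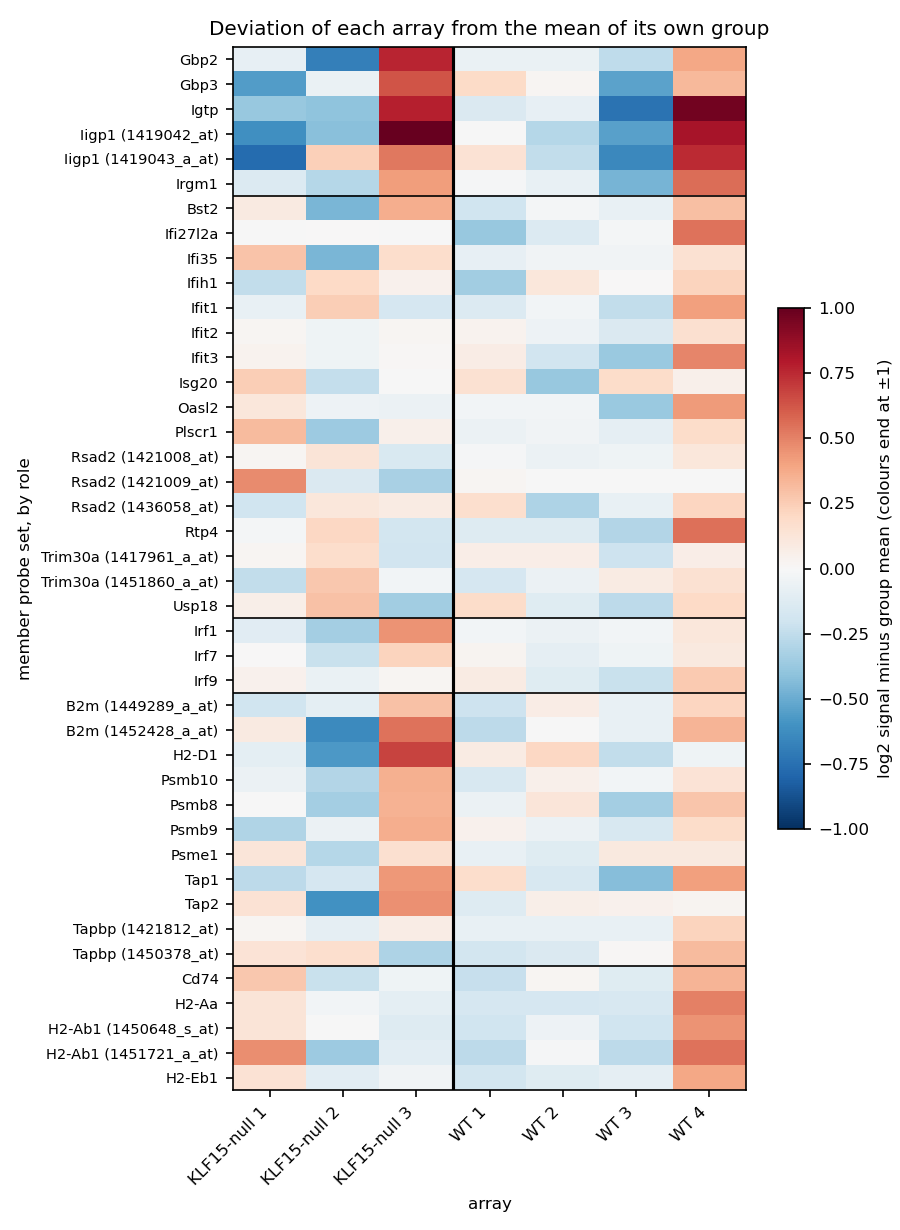
Log2 signal of each array minus the mean of its own group (colour, ending at ±1) for the 42 tested gene-specific member probe sets, with KLF15-null arrays left of the black line, WT arrays right of it, and roles separated by horizontal lines. KLF15-null array 3 and WT array 4 are red through the GTPases at the top, with mean deviations of 0.69 and 0.63, and WT array 4 is red for most other probe sets.

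Of 11 tested gene-specific probe sets of the class I pathway 2 were higher (18.2%, near the 23.8% of all gene-specific probe sets), 1 was lower (9.09%, against 25.4%) and 8 missed the threshold. The median difference was 0.18. The 2 that rose belong to the proteasome. Psmb10, a catalytic subunit of the immunoproteasome, read 9.27, 9.03 and 9.68 on the KLF15-null arrays, against 8.58, 8.79, 8.71 and 8.88 on the WT arrays. Psme1, a subunit of the PA28 activator that caps it, read 10.96, 10.55 and 11.00 on the KLF15-null arrays, against 10.20, 10.15, 10.37 and 10.37 on the WT arrays. The groups did not overlap for either gene. Psmb10 rose by 0.59 (SE 0.16, adjusted p = 0.0115) and Psme1 by 0.56 (SE 0.14, adjusted p = 0.00699). With quantile scaling Psme1 differed by 0.23 and no longer passed (adjusted p = 0.0916).

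The other inducible catalytic subunits did not pass. Psmb8 read 7.83, 7.49 and 8.18 on the KLF15-null arrays, against 7.31, 7.49, 7.03 and 7.65 on the WT arrays, a difference of 0.46 (adjusted p = 0.0616). It did pass after each of the 3 rescalings of the arrays, at 0.49 to 0.55, and without WT array 4 or KLF15-null array 2 (0.56 and 0.63). Psmb9 differed by 0.10 (adjusted p = 0.615). Constitutive proteasome genes were called in both directions, with 9 of 23 probe sets higher (39.1%, against 23.8% of all gene-specific probe sets) and 5 lower (21.7%, against 25.4%). Their median difference was 0.28 as deposited, but -0.13 with quantile and -0.03 with cyclic loess scaling. Psmb6, the subunit that Psmb9 replaces, rose by 0.86 (adjusted p = 0.000284). Psma5 rose by 1.31 and 0.66 on its 2 tested probe sets. Psmb3 had calls of 1.39 and -0.59 on different probe sets. Psme4, the gene of another proteasome activator, fell by 3.04 on 1 probe set, beside -0.49 and 0.28, not past the threshold, on others.

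Peptide transport and loading genes gave no rise past the threshold. Tap1, a subunit of the peptide transporter, read 7.33, 7.42 and 8.02 on the KLF15-null arrays, against 7.34, 7.01, 6.74 and 7.58 on the WT arrays (difference 0.42, adjusted p = 0.138). Its partner Tap2 differed by 0.18 (adjusted p = 0.51), and by 0.48 with a pass (adjusted p = 0.00594) without KLF15-null array 2. Tapbp, the gene of tapasin, which ties class I molecules to TAP, fell on its dimmer probe set. There it read 5.46, 5.49 and 5.01 on the KLF15-null arrays, against 6.29, 6.33, 6.49 and 6.79 on the WT arrays. The difference was -1.16 (SE 0.15, adjusted p = 0.000174), and in KLF15-null hearts the mean, 5.32, was under the filter level, where background may set the value. On the brighter probe set it differed by -0.16 (adjusted p = 0.271), and passed as lower with cyclic loess scaling (-0.31, adjusted p = 0.0463). The groups did not overlap there either, but narrowly, with KLF15-null arrays up to 9.17 and WT arrays from 9.18.

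B2m, the light chain of every class I molecule, had probe sets of opposite sign. On the first it read 11.60, 11.70 and 12.09 on the KLF15-null arrays, against 11.21, 11.49, 11.34 and 11.63 on the WT arrays (difference 0.38, adjusted p = 0.0602). On the second it read 11.49, 10.76 and 11.94 on the KLF15-null arrays, against 11.53, 11.79, 11.72 and 12.13 on the WT arrays (difference -0.40, adjusted p = 0.213). Both depended on the setting. The first differed by -0.03 with quantile and by 0.04 with cyclic loess scaling, and passed as higher with each array centred on its median (0.47, adjusted p = 0.0265), without WT array 4 (0.45, adjusted p = 0.0499) and without KLF15-null array 1 (0.48, adjusted p = 0.0395). The second passed as lower with quantile (-0.82, adjusted p = 0.0142) and cyclic loess scaling (-0.74, adjusted p = 0.0222).

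The class I heavy chain genes H2-K1 and H2-D1 are near-identical to other class I genes, and all but 1 of their tested probe sets are of the _x_at kind. The 7 tested _x_at probe sets differed by -0.08 to 0.26, with adjusted p from 0.389 to 0.821, and by -0.46 to 0.16 with quantile scaling, where 3 rather than 5 of them were positive. On all 7, KLF15-null array 3 was the highest and KLF15-null array 2 the lowest of its group. The brightest of H2-K1 read 11.45, 10.77 and 11.88 on the KLF15-null arrays and 11.13, 11.30, 10.81 and 11.20 on the WT arrays. The gene-specific probe set of H2-D1 read 7.03, 6.55 and 7.80 on the KLF15-null arrays and 7.02, 7.15, 6.69 and 6.90 on the WT arrays (difference 0.18, SE 0.25).

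Class II genes gave no common direction. Of 5 tested gene-specific probe sets 1 was higher and 1 lower (20% each, near the 23.8% and 25.4% of all gene-specific probe sets), and both belong to H2-Ab1, the beta chain of the I-A molecule. Its brighter one read 9.17, 9.04 and 8.91 on the KLF15-null arrays, against 8.31, 8.46, 8.31 and 8.96 on the WT arrays, a difference of 0.53 (adjusted p = 0.0233). Its dimmer one read 7.07, 6.24 and 6.50 on the KLF15-null arrays, against 7.07, 7.32, 7.07 and 7.88 on the WT arrays, a difference of -0.73 (adjusted p = 0.0262). The groups overlapped on each, with WT array 4 the highest WT array on both.

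Neither call for H2-Ab1 was stable. The higher one did not pass with quantile or cyclic loess scaling, nor without WT array 1, 2 or 3 or KLF15-null array 1 (adjusted p from 0.0556 to 0.0691). The lower one did not pass with a replicate block (-0.55, adjusted p = 0.0664), nor without WT array 2 or 4 or KLF15-null array 2 or 3 (adjusted p from 0.0537 to 0.0925). An _x_at probe set of H2-Ab1 passed as lower (-0.52, adjusted p = 0.0359), but not with quantile scaling (-0.46, adjusted p = 0.0577) or median centring (-0.42, adjusted p = 0.0658).

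The remaining class II genes did not pass on their gene-specific probe sets. H2-Aa, the alpha chain of I-A, read 6.92, 6.76 and 6.69 on the KLF15-null arrays, against 6.92, 6.92, 6.93 and 7.59 on the WT arrays (difference -0.30, adjusted p = 0.163). Its _x_at probe set read 10.40, 10.96 and 10.14 on the KLF15-null arrays, against 9.46, 9.84, 9.46 and 10.10 on the WT arrays, a difference of 0.78 (SE 0.22, adjusted p = 0.0144). That call was lost with quantile (0.49, adjusted p = 0.115) and cyclic loess scaling (0.56, adjusted p = 0.096). H2-Eb1, the beta chain of I-E, read 8.98, 8.73 and 8.80 on the KLF15-null arrays and 8.52, 8.58, 8.61 and 9.09 on the WT arrays (difference 0.14, SE 0.15). Cd74, the invariant chain that fills the class II groove until it is loaded, read 9.52, 9.03 and 9.21 on the KLF15-null arrays and 8.85, 9.10, 8.96 and 9.42 on the WT arrays (difference 0.17, SE 0.16).

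**Figure D4:**
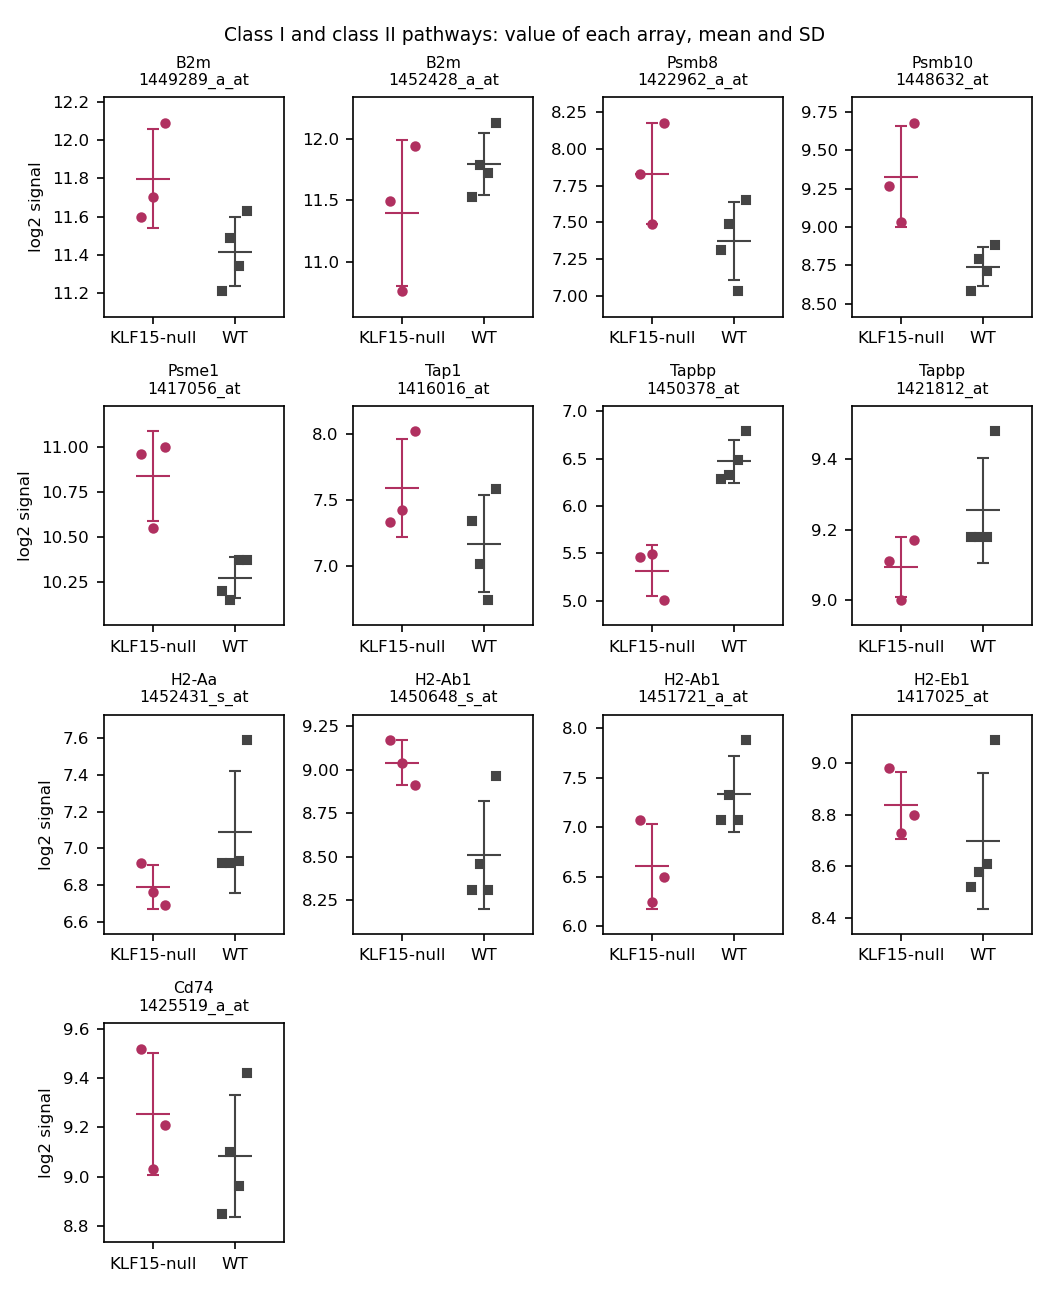
Log2 signal (y axis, scaled for each panel) on each KLF15-null array (circles, left) and WT array (squares, right) for class I and class II pathway genes and their tested gene-specific probe sets, with group mean (horizontal line) and SD (bar). Psmb10 and Psme1 are separated upwards and both probe sets of Tapbp downwards, the brighter one narrowly. WT array 4, the rightmost square, is high in most panels.

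Cell type markers, among them those of cells that carry class II molecules, moved unevenly beside these values. Each marker gene is counted on its brightest probe set, and over all gene-specific probe sets 23.8% were higher and 25.4% lower. All 5 pan-leukocyte genes were higher (Ptprc by 1.72, Cd53 by 1.44), with a summed linear signal of 922 to 1560 on KLF15-null and 396 to 546 on WT arrays. Of all 7 tested probe sets of these genes 6 were higher. The other differed by -0.14, not past the threshold, with the KLF15-null arrays all below the WT arrays. Of 13 macrophage and monocyte genes 2 were higher, 2 lower and 2 below the filter (Itgam and Fcgr1), with sums of 4666 to 6458 on KLF15-null and 3043 to 5075 on WT arrays. Lyz2 rose by 1.25 and C1qa fell by 1.24. Among 6 dendritic cell genes none was higher, 1 was lower and Xcr1, Cd209a and Ccr7 lay below the filter, with sums of 469 to 500 on KLF15-null and 454 to 528 on WT arrays. Cd79b, Ms4a1, Pax5 and Blnk of the B cell list were below the filter, and the sums were 192 to 234 on KLF15-null and 185 to 208 on WT arrays. T cell genes summed to 347 to 367 on KLF15-null and 361 to 407 on WT arrays, with 1 lower and Cd3d, Cd3g, Cd8a, Cd8b1 and Cd2 below the filter. For NK cell genes the sums were 231 to 255 on KLF15-null and 227 to 250 on WT arrays, and Ncr1, Nkg7, Gzmb, Prf1 and Eomes were below the filter. Of 4 neutrophil genes 2 were higher, with sums of 566 to 717 on KLF15-null and 218 to 337 on WT arrays, and Mpo was below the filter. Endothelial genes summed to 1348 to 2133 on KLF15-null and 2100 to 2645 on WT arrays, with 3 of 7 lower, Pecam1 among them at -2.24. A dimmer probe set of Egfl7 was higher, at 0.33 (adjusted p = 0.0222). Fibroblast genes summed to 3404 to 3670 on KLF15-null and 4674 to 8031 on WT arrays, with 2 of 6 lower and 1 higher. The part of these cells in the results for class II, class I and effector genes was not tested.

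Upstream genes were called in both directions. Of 12 tested probe sets of interferon ligands, receptors and kinases 1 was higher (8.33%) and 2 lower (16.7%), against 23.8% and 25.4% of all. Ifngr2, the signalling chain of the interferon gamma receptor, fell by 2.37 on 1 probe set (SE 0.16, adjusted p = 4.57e-06) and differed by 0.06 on another. Jak1 fell by 1.22 (adjusted p = 5.24e-05), with another probe set at -0.33, not past the threshold, and Jak2 rose by 1.15 (adjusted p = 2.48e-05), with another at -0.13. Ifnb1, Ifng and Ifna4 lay below the filter.

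Among other interferon regulatory factors and feedback inhibitors, 3 of 7 tested probe sets were higher (42.9%) and 1 lower (14.3%). Over all gene-specific probe sets 23.8% were higher and 25.4% lower. Ptpn2, a phosphatase that dampens Janus kinase and STAT signalling, rose by 1.88 and 1.74 on its tested probe sets. Irf8, a factor of myeloid cells, rose by 0.56 (adjusted p = 0.00273), and Pias1, of a family of SUMO ligases, fell by 0.41 (adjusted p = 0.00568). Of 14 tested probe sets of nucleic acid and pattern sensing genes 4 were higher (28.6%, against 23.8%) and 2 lower (14.3%, against 25.4%). Myd88, the adaptor of most Toll-like receptors, rose by 0.88, Tbk1, a kinase that activates IRF3, by 0.83 on 1 of 2 probe sets, and Tlr3 by 0.43. Tlr4 had calls of 1.20 and -0.44 on different probe sets.

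Further target genes were called in both directions as well. Of 29 tested probe sets of other interferon-stimulated genes 10 were higher (34.5%, against 23.8% of all gene-specific probe sets) and 5 lower (17.2%, against 25.4%), with a median difference of 0.26. Ifitm1, which blocks virus entry at membranes, rose by 1.57 (SE 0.10, adjusted p = 3.64e-06) and Nmi, a partner of STAT proteins, by 0.86. Lgals9 and Lgals3bp, the genes of galectin 9 and of a galectin-binding protein, fell by 1.35 and 1.14. In the class I chaperone and nonclassical list, 2 of 10 tested probe sets were higher (20%) and 3 lower (30%). Calr, the chaperone calreticulin, rose by 1.25, Pdia3, its partner oxidoreductase, fell by 1.87, and Canx, calnexin, had calls of -1.46 and 0.32. In the class II processing list 2 of 8 were higher (25%) and none lower: Ctss, the cathepsin that trims the invariant chain, by 2.0 (SE 0.29, adjusted p = 0.000343), and Rfxap, a subunit of the RFX complex that binds class II promoters, by 0.55. Ciita, the class II transactivator, lay below the filter.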

How the data were processed

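RNA was extracted with Trizol and labelled by Affymetrix's one-cycle method, as the labels' protocols state. The values the authors deposited are on a log2 scale, 1 per probe set and array, which was read from their range. GCOS is named per the submitters' processing notes, and how the authors summarized, scaled or filtered the arrays is not stated. Identical deposited values on 2 or more arrays of a group were found for 8.62% of probe sets among the 3 KLF15-null arrays and 30.4% among the 4 WT arrays (10 of the 42 tested member probe sets), which can understate the spread.

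Probe sets were named through the platform annotation, and all 65 member probe sets matched RefSeq genes by Entrez number. The 3 KLF15-null arrays were set against the 4 WT arrays on the deposited values with limma 3.58.1 in R 4.3.3 (intensity trend, two-sided) over 13576 probe sets with a mean at or above the 40th percentile, with Benjamini-Hochberg adjustment over all of them and a threshold of 0.05. On simulated data for this comparison (13576 probe sets, 200 changed), 92% of changes of 1 were recovered and 11 unchanged probe sets were called. The simulation gave both groups the spread of the WT arrays and changed far fewer probe sets than were called here. These figures therefore check the procedure and do not give its error rates in the real data.

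Same-numbered arrays had deviations correlated at -0.11, 0.00 and 0.19 and were not treated as pairs. Members and lists were chosen with earlier results of these data known. Every array's value is given for up to 6 genes per role by smallest p and for members called in opposite directions, and up to 4 genes of each other list are named by smallest p. Alternatives covered the filter, array scaling, trend, array weights, a replicate block, each array left out, how probe sets stand for a gene and a minimum difference of 1.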

Additional observations from a re-analysis of the deposited data

Results flagged for a closer look

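In 6 of the 42 tested member probe sets 1 WT array stood apart from the other 3 by Dixon's 95% criterion, where chance gives about 1 in 20. WT array 4 was the high one in 3 of them. It read 7.59 for H2-Aa (other WT arrays 6.92 to 6.93), 9.09 for H2-Eb1 (8.52 to 8.61) and 9.48 for the brighter probe set of Tapbp (9.18 on each of the others). WT array 1 was low for Tap2, at 6.82 against 6.98 to 7.01, and high by 0.03 for a probe set of Rsad2, at 7.02 against 6.99. WT array 3 was low for the brighter probe set of Trim30a, at 8.24 against 8.52. For Tapbp, H2-Aa, Rsad2 and Trim30a the other WT arrays hold identical or nearly identical deposited values, which narrows the range that the criterion uses. None of these 6 probe sets passed the threshold between KLF15-null and WT hearts.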

How the results depend on the processing

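All 15 called member probe sets kept their sign under every alternative run. Without the filter or the intensity trend all 15 stayed called, with quantile scaling 13, with cyclic loess scaling 14 and with median centring 15. Array weights kept 14 and called 11 more, among them Irf1, Psmb9 and Tap1. Among effectors the 8 higher calls became 2 with a minimum difference of 1, and the 2 lower calls became 0 with the 60th percentile filter and 1 with the brightest probe set per gene, the mean per gene or the minimum difference. In class I the 2 higher calls became 4 with median centring, 8 with array weights and 0 with the minimum difference. The 1 lower class I call became 0 with the 60th percentile filter or the brightest probe set, 2 with quantile and 3 with cyclic loess scaling. The 1 higher class II call became 0 with quantile or cyclic loess scaling, the mean per gene or the minimum difference, and 2 with _x_at probe sets. The 1 lower class II call became 0 with the replicate block, the brightest probe set, the mean per gene or the minimum difference, and 2 with _x_at probe sets. Over the whole array, higher calls numbered 3637 and lower ones 3235. They became 2104 and 1684 with the brightest probe set, 1873 and 1991 with the mean per gene, and 1026 and 911 with the minimum difference. At the 60th percentile, 9 of the 15 called member probe sets passed the filter, and all 9 stayed called. The lower effector and class I calls lost there were on probe sets that this filter left untested. A minimum difference of 1 removes smaller differences by definition, and fewer probe sets enter where 1 stands for a gene. The causes of the other shifts were not tested.

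Leaving out single arrays gave 3105 to 3936 higher and 2750 to 3433 lower calls over the array, 6 to 12 and 2 to 3 among effectors, 2 to 4 and 1 to 1 in class I, and 0 to 1 in each direction in class II. With the replicate block, which uses 6 arrays, 10 effector probe sets were higher and 2 lower, 3 class I ones higher and 1 lower, and 1 class II one higher and 0 lower. Same-numbered arrays are not known to be pairs. Precision is limited by 7 arrays, and signals near or below log2 5.74 may be set by background.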
